A study of Mus musculus with 8 samples.

Results

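Histone genes were examined in RNA-seq data from kidney tissue of 8 diabetic mice, 4 given recombinant FGF4 (rFGF4) and 4 given vehicle. The set held 74 genes of the 55401 in the deposited table, chosen by gene symbol: linker histones H1, the core histones H2A, H2B, H3 and H4 of the histone clusters, H2A.Z, H2A.X and H3.3, with the pseudogenes and the antisense gene that share these symbols. The set was selected on results of the same rFGF4 against vehicle comparison. The differences between the groups are therefore given as a description, and nothing is supported with them.

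The 4 rFGF4-treated mice were numbered 1, 2, 3 and 5 and the 4 vehicle-treated mice 2, 3, 4 and 5, with 1 library per mouse. The sample labels gave the vehicle libraries as a db/db model, a leptin receptor mutant with obesity and type 2 diabetes, and gave the rFGF4 libraries only that treatment. The text of the study instead described the sequenced kidneys as those of mice made diabetic with streptozotocin, a toxin of the insulin-producing beta cells, and the files did not settle which model was used. The study used male mice, and its rFGF4 was a truncated recombinant human protein injected intraperitoneally, with phosphate-buffered saline as the vehicle. The labels stated no strain, age, dose or duration for these libraries, and the errors given here measure only the spread among these mice.

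Expression was given as FPKM, fragments per kilobase of transcript adjusted for library size. The value 0.0001 was the listed floor. Counts were not among the values analysed, so the depth behind a value is unknown and no counting interval could be given. Depth relative to vehicle mouse 2 was estimated as the commonest ratio of values under 0.5 FPKM, and was 0.905 to 1.12. Large ratios in either direction were left out beforehand, so a large difference in depth could not have shown. The summed FPKM was 389404 to 529831 with rFGF4 and 481318 to 552600 with vehicle, with 3 of the 4 rFGF4 libraries below all vehicle libraries. Mitochondrial transcripts took 19%, 24.7%, 29.8% and 36.0% of it in rFGF4 mice 1, 2, 3 and 5 and 38.4%, 34.2%, 37.2% and 24.4% in vehicle mice 2, 3, 4 and 5. The part of this difference in the histone values was not tested. All 10 kidney markers examined passed the filter on low values, and 0 passed the threshold. Some tubule markers, of which Slc5a2 and Slc12a3 were picked after their values were seen, were lower in rFGF4 mouse 1 than in any other mouse: Slc34a1, the proximal phosphate transporter, at 136 against 483 to 824 FPKM, Slc5a2, the glucose transporter SGLT2, at 12.7 against 47.2 to 107.9, and Slc12a3, the distal sodium chloride transporter, at 20.5 against 55.7 to 133. Further tubule markers, also picked after their values were seen, were lowest in that mouse. They were Lrp2 (25.8 against 32.1 to 82.6 FPKM), Slc12a1 (70.3 against 110.7 to 309.9) and Aqp2 (108.9 against 124.0 to 242.6). Umod, of the thick ascending limb, was the exception, at 839 FPKM in that mouse and 654 to 1213 in the others. The endothelial gene Pecam1 was at 5.84 FPKM there and 5.14 to 9.20 in the others. On the first principal component (54.4% of the variance), rFGF4 mouse 1 (0.56) and vehicle mouse 5 (0.52) stood apart from the other mice (-0.38 to 0.14). Their median expression ratios to the geometric mean of all libraries were 1.28 and 1.10, against 0.90 to 1.06 in the others.

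Core histones form the protein spool of the nucleosome, and the linker histone H1 binds where DNA enters and leaves it. Most core and linker histone genes lie in clusters, lack introns and are transcribed in S phase, and their mRNAs end in a conserved stem-loop instead of a poly(A) tail. Replacement histones such as H3.3, H2A.Z and H1.0 come from single genes outside the clusters, are made throughout the cell cycle as polyadenylated mRNAs, and predominate among the histone mRNAs of non-dividing cells. The libraries were made from poly(A)-selected RNA, and poly(A)-selected libraries hold a stem-loop mRNA mainly where it also carries a tail.

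By class, 56 of the 74 genes were replication-dependent cluster genes, 6 were replication-independent replacement genes (H1f0, H1f10, H2az1, H2az2, H3f3a and H3f3b), 5 were germ-cell forms, and 6 were pseudogenes or antisense genes. H2ax, whose mRNA is known in both forms, was kept apart. By position, 48 lay in the Hist1 cluster of chromosome 13, 10 in Hist2 on chromosome 3, 3 in Hist3 on chromosome 11 and 13 elsewhere.

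The end of the mRNA sets these genes apart, so the stem-loop sites of the members the results turn on are shown first. Each runs 5′ to 3′ on the mRNA strand, written as DNA from the GENCODE M21 transcript on GRCm38, with the 16 bases of the histone stem-loop motif in capitals.
H1f2: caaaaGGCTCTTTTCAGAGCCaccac
H2bu2: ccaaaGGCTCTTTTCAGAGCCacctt
H2aw: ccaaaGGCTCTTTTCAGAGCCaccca
H2ax: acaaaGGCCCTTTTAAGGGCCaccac
H4c8: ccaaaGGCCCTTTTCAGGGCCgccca
H4c9: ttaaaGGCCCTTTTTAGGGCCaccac
H4c8 and H4c9, both encoding core histone H4, were added to this set after their values were seen. The motif began 24 bases after the stop codon in H1f2, 28 in H2bu2, 41 in H2aw, 46 in H2ax, 31 in H4c8 and 30 in H4c9. The models differed in what followed: 840 bases in H1f2, 822 in H2ax, 1643 in H2aw, 330 in H4c9 and 169 in H2bu2, but only 46 in H4c8. All 6 models held a poly(A) signal, AATAAA or its common variant ATTAAA, in their last 50 bases.

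Over the 67 protein-coding members, 14 had a model with fewer than 16 bases after an annotated stop codon and could not be searched. Of the other 53, the motif was found in 41 and not found in 12. The 12 without it, the replacement genes among them, had a median level of 14.2 FPKM over the 8 mice, and 8 of them passed the filter of 0.5 FPKM in at least 4 libraries. Among the 41 with it, 18 ended within 100 bases of the stem-loop, of which 3 passed the filter and the highest mean was 4.84 FPKM. The other 23 ran on for more than 100 bases, of which 8 passed and the highest mean was 45.8 FPKM. These are counts over gene models, many of which share a cluster and near-identical coding sequence.

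Levels in kidney were uneven across the family. Of the 74 genes, 7 were at the floor in every mouse and 34 had a mean below 0.1 FPKM. The filter was passed by 23: 14 of the 56 replication-dependent genes, all 6 replacement genes, H2ax, and the pseudogenes H3f3a-ps1 and H3f3a-ps2. None of the 5 germ-cell genes passed it, and the highest of their means was 0.121 FPKM. The 8 members with the highest mean took 89.0% to 93.9% of all histone FPKM in a mouse.

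**Figure D1:**
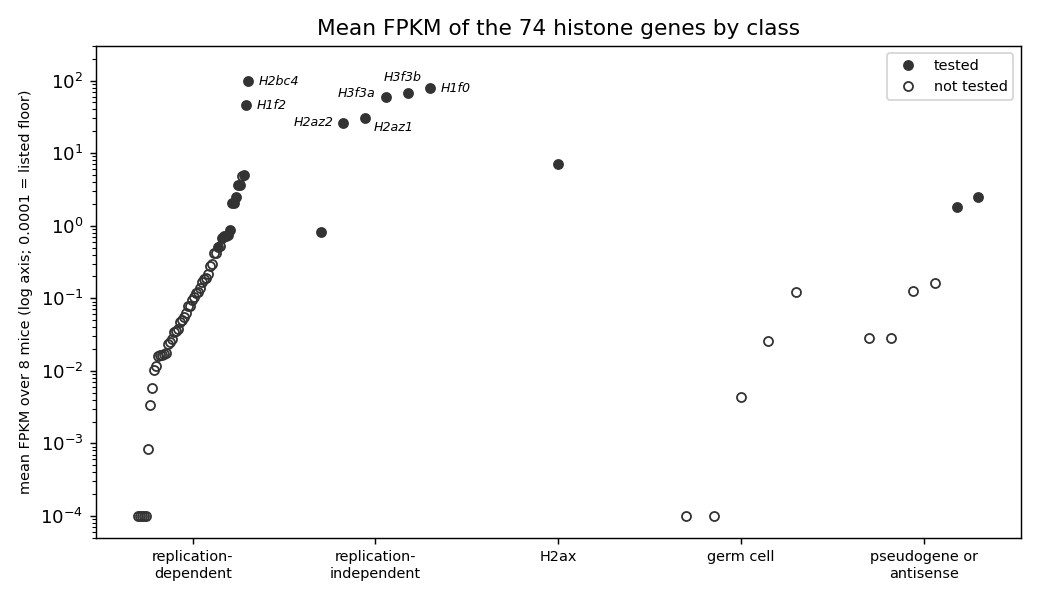
Mean FPKM over all 8 mice (log axis) of each of the 74 histone genes, in 5 classes; filled points passed the filter on low values and open points did not. Among the replication-dependent genes H2bc4 (97.5) and H1f2 (45.8) stand well above the rest, whereas 5 of the 6 replacement genes are at 26.3 FPKM or higher.

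The most abundant member was H2bc4, a Hist1 gene for core histone H2B, at a mean of 97.5 FPKM, followed by H1f0 (78.8), H3f3b (67.0), H3f3a (59.3), H1f2 (45.8), H2az1 (30.0), H2az2 (26.3) and H2ax (7.08). H2bc4 and H1f2 were thus the only replication-dependent genes among these 8. The H2bc4 model carried 742 bases after the stop codon with no stem-loop motif in them. Of its 50-base windows, 30.6% also occurred in transcripts of other genes, so its level is uncertain to that extent. The share was 35.4% for H2az1, 31.5% for H2aw and 27.1% for H3f3a, and 8.54% for H1f2.

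H1f2 encodes linker histone H1.2 (ENSMUSG00000036181, GRCm38 chr13:23738808-23740367, plus strand, a single exon in Hist1). In the rFGF4-treated mice 1, 2, 3 and 5 its level was 22.0, 34.4, 40.4 and 31.2 FPKM. In the vehicle-treated mice 2, 3, 4 and 5 it was 68.6, 46.6, 64.9 and 58.1 FPKM. Every rFGF4-treated mouse was below every vehicle-treated mouse, with rFGF4 mouse 3 and vehicle mouse 3 nearest to each other. The means were 32 ± 7.68 FPKM (SD, n = 4) with rFGF4 and 59.5 ± 9.67 FPKM (SD, n = 4) with vehicle, a ratio of 0.538. On the log2(FPKM + 1) scale the difference was -0.89 (SE 0.20).

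H1f2 kept this order when each library was divided by its median ratio, a scaling to a common median ratio, at 17.2 to 42.7 against 49.4 to 76.3 scaled FPKM, with a log2 difference of -1.02. The lowest of the rFGF4 values was that of mouse 1, whose library stood apart and had the low tubule markers above. Without rFGF4 mouse 1 and vehicle mouse 5, a comparison added after the values were seen, the log2 difference was -0.74. No annotated gene overlapped an exon of H1f2. The gene it shared most windows with, H1f3 (linker histone H1.3), was at only 0.0177 to 0.513 FPKM.

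H1f0 encodes H1.0, the replacement linker histone of differentiated cells (GRCm38 chr15:79028450-79030504). Its level was 61.4, 61.9, 74.3 and 70.5 FPKM in rFGF4-treated mice 1, 2, 3 and 5. It was 122.5, 72.0, 85.5 and 82.0 FPKM in vehicle-treated mice 2, 3, 4 and 5. The groups overlapped, since rFGF4 mouse 3 was above vehicle mouse 3, and vehicle mouse 2 was far above the others. The log2 difference was -0.40 (SE 0.18), and -0.25 without vehicle mouse 2. An antisense gene, Gm49544, overlaps H1f0 on the opposite strand at 0.187 to 0.427 FPKM, and whether the counting used strand is not given in the sources used here.

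H1f0 and H1f2 together made up 98.1% to 99.7% of the FPKM of the 11 H1 genes in each mouse. Their sum was 83.5, 96.3, 114.7 and 101.7 FPKM in rFGF4-treated mice 1, 2, 3 and 5 and 191.1, 118.5, 150.4 and 140.1 FPKM in vehicle-treated mice 2, 3, 4 and 5. The groups did not overlap, and the gap between rFGF4 mouse 3 and vehicle mouse 3 was small. The share of H1f2 in the H1 total was 25.9% to 35.4% with rFGF4 and 35.5% to 42.9% with vehicle, ranges that nearly touched but did not overlap. The other 9 H1 genes summed to 0.342 to 1.53 FPKM with rFGF4 and 0.807 to 2.68 FPKM with vehicle, which overlapped. In bulk kidney RNA, fewer cells that hold a transcript and less transcript per cell cannot be told apart.

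**Figure D2:**
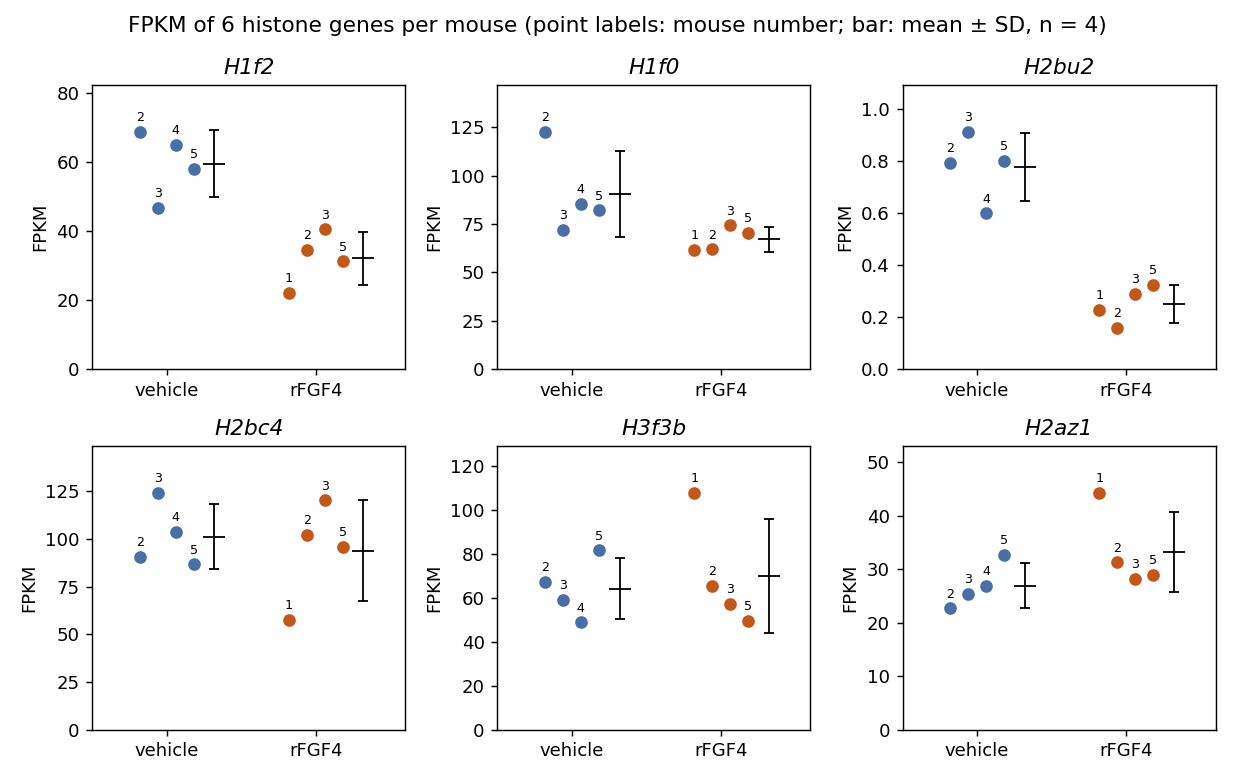
FPKM of H1f2, H1f0, H2bu2, H2bc4, H3f3b and H2az1 in each mouse (points, numbered by mouse), with the mean and SD of each group of 4 beside them. For H1f2 and H2bu2 all rFGF4 points lie below all vehicle points, and in the other 4 panels the groups overlap.

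H2bu2, a Hist3 gene for a core histone H2B (GRCm38 chr11:58948920-58949533), was the other tested member whose groups did not overlap. It was at 0.227, 0.159, 0.288 and 0.323 FPKM in rFGF4-treated mice 1, 2, 3 and 5 and at 0.794, 0.911, 0.598 and 0.801 FPKM in vehicle-treated mice 2, 3, 4 and 5. All rFGF4 values were below the filter level of 0.5 FPKM and all vehicle values above it, so the gene was tested only through the group in which it was high. The log2 difference was -0.51 (SE 0.10), which understates the ratio of means (0.321) because a pseudocount of 1 FPKM is large beside these levels. Of its 50-base windows, 22.1% were shared, most with the pseudogene H2bu1-ps (Hist3h2bb-ps). That member did not pass the filter and was at 0.0333 to 0.300 FPKM with rFGF4 and from the floor to 0.201 FPKM with vehicle, so its levels reached those of H2bu2 with rFGF4 and its mean was higher with rFGF4.

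The neighbour of H2bu2 in the Hist3 cluster, H2aw, encodes a core histone H2A. It was at 6.49, 5.53, 3.12 and 3.44 FPKM with rFGF4 and 5.38, 5.42, 4.28 and 6.88 FPKM with vehicle. These groups overlapped widely and the log2 difference was -0.23 (SE 0.23). It was -0.38 without rFGF4 mouse 1, -0.096 without rFGF4 mouse 3, and -0.13 without rFGF4 mouse 5 or without vehicle mouse 5. Its exons overlap Trim17 on the same strand (0.127 to 0.365 FPKM) and Gm44313 on the opposite strand.

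Of the remaining H2B genes, H2bc4 was at 57.4, 102.1, 120.1 and 95.8 FPKM with rFGF4 and 90.6, 124.0, 103.5 and 86.6 FPKM with vehicle. The groups overlapped, with rFGF4 mouse 1 alone at the low end. Its log2 difference of -0.14 (SE 0.24) was 0.074 without that mouse and -0.27 after scaling to a common median ratio. H2bc21, a Hist2 gene for the variant H2BE known from olfactory neurons, was at 2.06, 1.27, 1.53 and 2.13 FPKM with rFGF4 and 2.24, 1.89, 2.31 and 2.96 FPKM with vehicle. Its groups overlapped only in that vehicle mouse 3 was below rFGF4 mice 1 and 5, and the log2 difference was -0.29 (SE 0.16).

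H3f3a and H3f3b encode the same protein, H3.3, which is deposited outside S phase. H3f3b was at 107.6, 65.6, 57.2 and 49.3 FPKM with rFGF4 and 67.1, 59, 48.8 and 81.5 FPKM with vehicle. H3f3a was at 75.9, 61.2, 50.5 and 54.4 FPKM with rFGF4 and 51.5, 62.0, 47.5 and 71.1 FPKM with vehicle. For both genes rFGF4 mouse 1 was highest and vehicle mouse 5 next, and the groups overlapped. The log2 differences were 0.084 (SE 0.26) for H3f3b and 0.060 (SE 0.18) for H3f3a, and -0.044 and -0.068 after scaling to a common median ratio. H3f3a-ps1, a processed pseudogene of H3f3a, had a log2 difference of 0.16 (SE 0.17) from levels of 1.3 to 2.67 FPKM with rFGF4 and 1.33 to 2.07 FPKM with vehicle. That difference was 0.045 without rFGF4 mouse 1, 0.27 without rFGF4 mouse 2 and 0.10 without vehicle mouse 2. Of its windows 54.3% were shared, most with the far more abundant H3f3a, so its level is uncertain.

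H2A.Z, a variant placed at promoters and other regulatory sites, is encoded by H2az1 and H2az2. H2az1 was at 44.3, 31.3, 28.2 and 29.0 FPKM with rFGF4 and 22.7, 25.4, 26.9 and 32.7 FPKM with vehicle. Vehicle mouse 5 was above 3 of the rFGF4-treated mice, and the other vehicle-treated mice were below all of them. The log2 difference was 0.28 (SE 0.18), and 0.15 after scaling and 0.14 without rFGF4 mouse 1. H2az2 was at 24.5 to 30.8 FPKM with rFGF4 and 22.2 to 27.0 FPKM with vehicle, with a log2 difference of 0.10 (SE 0.12) that was -0.024 after scaling, 0.043 without rFGF4 mouse 1 and 0.042 without vehicle mouse 3.

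H2ax, whose protein is phosphorylated around DNA double-strand breaks, was at 10.4, 9.57, 5.15 and 5.07 FPKM with rFGF4 and 4.45, 7.36, 5.41 and 9.20 FPKM with vehicle. The mice of each group were spread over the same range, and the log2 difference was 0.15 (SE 0.28), and 0.034 after scaling. The 11 tested members outside these named genes had means of 0.685 to 3.69 FPKM and log2 differences of -0.23 to 0.21.

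Across the family, 1 of the 23 tested members passed the threshold of the study's methods, which asks for p under 0.05 before adjustment and a change of 1.5-fold or more (limma). That member was H1f2, and it was lower with rFGF4. Of all 15150 tested genes 1.53% passed it, 1.09% as higher and 0.442% as lower with rFGF4. Groups did not overlap with rFGF4 lower in 2 of the 23 tested members (H1f2 and H2bu2) and with rFGF4 higher in 0, while 0.667% of all tested genes did so as lower and 2.66% as higher. Because the set was chosen on this contrast, nothing is read from these counts. Of the members below the filter, named here after their values were seen, H2bc6 (0.0371 to 0.0975 against 0.0983 to 0.207 FPKM) and H3c7 (at the floor in all rFGF4-treated mice, 0.0170 to 0.0717 FPKM with vehicle) also did not overlap, at levels too low to be tested. The share of such cases among all genes below the filter was not computed, so nothing is read from them either. With the Benjamini-Hochberg adjustment 0 of the 15150 genes, and so 0 members, passed 0.05 in limma, the smallest adjusted p being 0.918; 700 genes and 3 members (H2bu2, H1f2 and H1f0) had an unadjusted p under 0.05. H1f0 kept it in 1 of the 8 fits that each left out a mouse, and lost it after scaling, while H2bc21 had it only after scaling (log2 difference -0.37) and not as deposited.

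The log2 difference was above 0 in 8 of the 23 members and below 0 in 15, with a median of -0.071, while over all tested genes the median was 0.086. Among the 14 replication-dependent genes 12 were below 0 and the median was -0.17, and among the 6 replacement genes 2 were below 0 and the median was 0.072. Scaling to a common median ratio moved the median of all genes from 0.086 to -0.011 and that of the members from -0.071 to -0.16, with 18 of the 23 then below 0. Of all 15150 tested genes, 4986 were below 0 as deposited and 7942 after scaling. After scaling, 5 of the 6 replacement genes were below 0, so their direction as a class depended on the scaling.

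**Figure D3:**
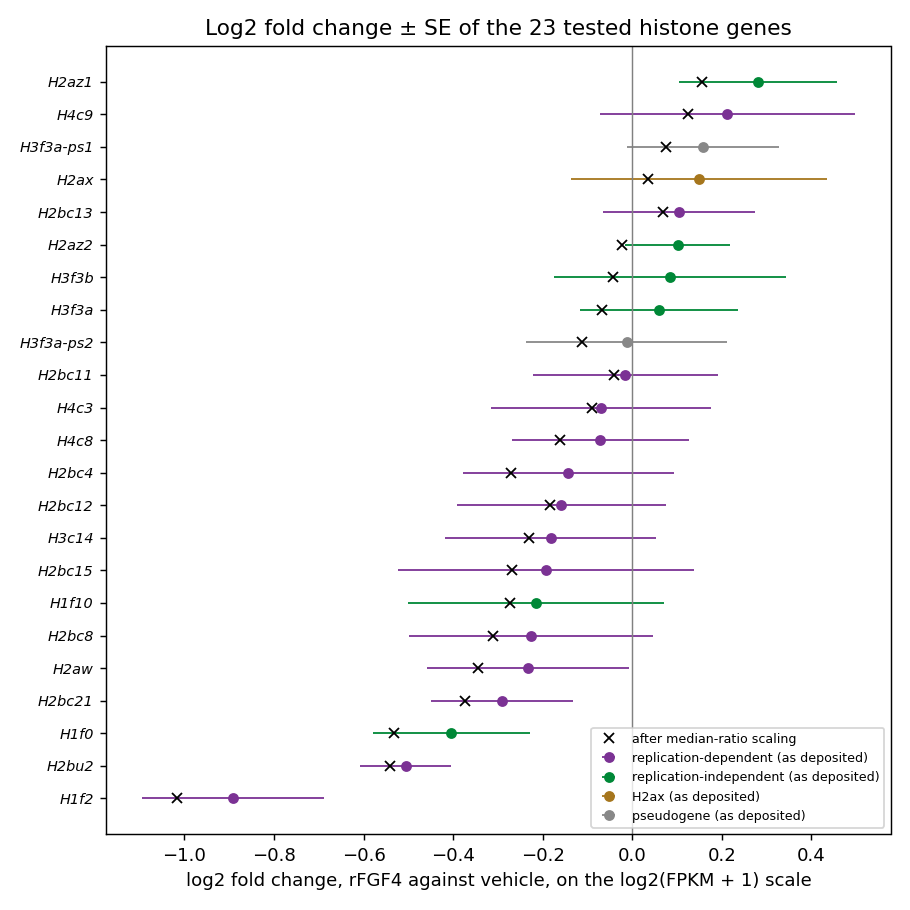
Log2 fold change of rFGF4 against vehicle (x axis, log2(FPKM + 1) scale) of the 23 tested members, as deposited with its SE (coloured points and lines, by class) and after scaling to a common median ratio (crosses). H1f2 (-0.89) is the lowest and H2az1 (0.28) the highest, and H2az2, H3f3b and H3f3a change sign with the scaling.

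Summed over all 74 genes, histone expression was 389 to 442 FPKM with rFGF4 and 454 to 492 FPKM with vehicle, which did not overlap. Without H1f2 the sums were 358 to 417 and 389 to 433 FPKM and overlapped, and so did the sums of all 74 genes after scaling (342 to 467 and 448 to 538). By protein, the sums of the groups overlapped for H2A (66.6 to 92.6 against 60.4 to 79.3 FPKM), H2B (64.7 to 133 against 100.2 to 138), H3 (110.03 to 191 against 102 to 159) and H4 (4.96 to 12 against 6.0 to 9.63). H1 was the exception, at 85.0 to 116 against 119.8 to 193 FPKM, and its sum was that of H1f0 and H1f2 almost entirely.

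**Figure D4:**
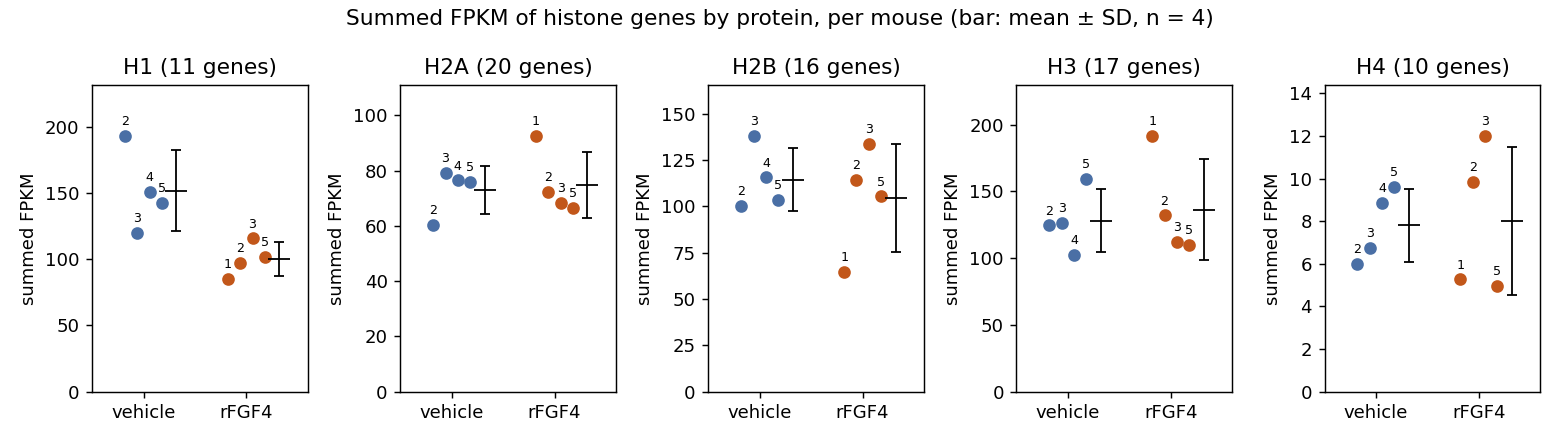
Summed FPKM of the members encoding each histone protein (pseudogenes and the antisense gene counted with their parent) in each mouse, with the mean and SD of each group of 4. The H1 sums of the rFGF4-treated mice (85.0 to 116) lie below those of the vehicle-treated mice (119.8 to 193), and the H2A, H2B, H3 and H4 sums overlap.

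The promoter windows of the genes for the 2 abundant H1 proteins were also read, but they lie at unlike distances from the GENCODE starts. Shown for each are the 140 bases before the RefSeq start on GRCm38.p6, plus strand, with the H1 box (AAACACA, an element of cell-cycle-regulated H1 genes) and CCAAT in capitals. H1f2 is at chr13:23738667-23738806 and H1f0 at chr15:79028072-79028211, upstream of the GENCODE start used above.
H1f2: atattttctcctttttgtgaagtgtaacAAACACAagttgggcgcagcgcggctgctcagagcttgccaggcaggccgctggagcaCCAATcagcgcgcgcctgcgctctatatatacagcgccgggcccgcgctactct
H1f0: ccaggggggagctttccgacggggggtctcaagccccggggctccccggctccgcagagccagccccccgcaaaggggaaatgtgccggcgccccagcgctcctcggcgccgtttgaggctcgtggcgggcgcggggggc
Within 250 bases before the RefSeq start, on either strand, H1f2 held the H1 box at -112 and CCAAT at -54, and H1f0 held neither. The H1f0 window ends short of its GENCODE start at 79028450, and the bases between them were not searched. No difference between the genes can therefore be read from the lack of a match in H1f0. The exact TATA box letters TATAAA were found in neither window. No variant of them was searched, and the H1f2 window holds the similar run tatatata near its end. The H1 box was present in 5 of the 10 H1 genes with a promoter entry and in 6.25% of all 32851 promoters. For the 61 members matched in RefSeq the shares were 82.0% for CCAAT and 42.6% for TATAAA, against 33.8% and 12.4% of all promoters. A match describes the letters of the window and shows no binding, and neighbouring genes that point away from each other can share promoter bases.

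A number of Hist2 values could not be assigned to single genes. H2ac18, a core histone H2A gene named here after its values were seen, was at the floor in 5 mice and at 6.74 FPKM in rFGF4 mouse 3, 18.3 in vehicle mouse 3 and 13.7 in vehicle mouse 4. All of its 50-base windows also occur in other transcripts, and its copy H2ac19 was listed at the floor in all 8 mice. Gm20634, a same-strand transcript model that overlaps H2ac18 and the H3 gene H3c14, was above the floor in those same 3 mice, at 0.477, 0.639 and 0.568 FPKM. H3c14 was lower in them (0.387 to 0.517 FPKM) than in the other 5 (0.671 to 1.77 FPKM). Its part in the H2ac18 values was not tested, and H2ac18 did not pass the filter.

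Genes that act with histones were read in the same fit, and 0 genes of any list passed the threshold. Of 25 proliferation genes 17 were tested and 16 had a log2 difference above 0, with a median of 0.15, where 10164 of all 15150 tested genes were above 0. After scaling, 4 of the 17 were below 0 and the median was 0.066. The summed level of the list was 40.0 to 97.9 FPKM with rFGF4 and 36.5 to 71.5 FPKM with vehicle, and the highest mouse of each group was rFGF4 mouse 1 and vehicle mouse 5. Rrm2, a subunit of ribonucleotide reductase, was at 4.68 FPKM in rFGF4 mouse 1 and 1.08 to 1.98 FPKM in the other mice. Pcna, the replication clamp, Mcm7, of the replicative helicase, and Ccna2, cyclin A2, were highest in rFGF4 mouse 1 (29.2, 9.85 and 2.19 FPKM) and next in vehicle mouse 5 (23.3, 5.71 and 1.32 FPKM). The highest levels of H3f3a, H3f3b and H2az1 stood in the same 2 libraries, and the part of proliferation in them was not tested. For H1f2, rFGF4 mouse 1 was the lowest of all 8 mice and vehicle mouse 5 was within the range of its group.

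Of 20 genes for histone mRNA synthesis and 3′ processing 19 were tested, 16 above 0, with a median of 0.19 (0.10 after scaling). Tent4a, a poly(A) polymerase, had a log2 difference of 0.31 (SE 0.14) and Cpsf2, a subunit of the cleavage complex, 0.27 (SE 0.15). Srrt and Ncbp2, which act with the mRNA cap, were the most abundant and differed by 0.16 (SE 0.16) and 0.060 (SE 0.16). Of 27 chaperone and exchange genes 26 were tested, 23 above 0, with a median of 0.16; after scaling 6 were below 0 and the median was 0.058. Anp32e, the chaperone that removes H2A.Z from nucleosomes, was at 18, 21.4, 19.2 and 17.5 FPKM with rFGF4 and 17.4, 13.9, 11.5 and 12.4 FPKM with vehicle. Its groups did not overlap, narrowly at vehicle mouse 2, and the log2 difference was 0.45 (SE 0.14), short of the fold threshold. After scaling the groups overlapped and the difference was 0.32. Rbbp7, a histone-binding subunit of chromatin complexes, had a log2 difference of 0.41 (SE 0.17) with groups that overlapped, and Npm1, a nucleolar histone chaperone, 0.28 (SE 0.19).

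Of the 20 RNAs examined that lack a poly(A) tail, 8 were tested. The list summed to 24.8 to 59.1 FPKM with rFGF4 and 16.8 to 57.5 FPKM with vehicle, so the groups overlapped. Their log2 differences ran from -0.48 (Snora73b, a small nucleolar RNA) to 0.59 (Rpph1, the RNA of ribonuclease P). The most abundant, Rn7s1 and Rn7s2, RNAs of the signal recognition particle, were at 6.17 to 23.6 FPKM and lowest in vehicle mouse 2 and rFGF4 mouse 1. Of the 3 histone genes with names outside the set that were tested, H2aj, a replacement H2A, differed by -0.18 (SE 0.16), Macroh2a1 by 0.11 (SE 0.18) and Macroh2a2 by 0.24 (SE 0.34), the last 2 encoding macroH2A of silent chromatin.

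The 6 red blood cell genes were all below 0 (median -1.93) and summed to 123 to 2667 FPKM with rFGF4 and 1144 to 4331 FPKM with vehicle, which overlapped. Hba-a1, an alpha-globin gene, was highest in vehicle mouse 3 (1117 FPKM), the vehicle mouse lowest for H1f2, and lowest in rFGF4 mouse 1 (32.7 FPKM), the rFGF4 mouse lowest for H1f2. Hba-a2 and the beta-globin gene Hbb-bs had the same highest and lowest mice. Of 11 lymphocyte genes 7 were tested, and the list summed to 84.5 to 2800 FPKM with rFGF4 and 30.2 to 23504 FPKM with vehicle, vehicle mouse 5 being highest. Most of it was Igkc, an immunoglobulin light chain gene, at 22334 FPKM in that mouse, where the B cell receptor genes Cd79a and Cd79b were at 30.6 and 14.4 FPKM and Ighm, a heavy chain gene, at 964. The part of blood cells in the histone values was not tested.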

How the data were processed

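Kidney poly(A) RNA of 8 mice was sequenced in paired-end reads. Per the labels, the submitters' processing notes name HISAT2 2.0, Bowtie 0.12.2, StringTie 1.3.0 and mm8. The authors assembled transcripts with StringTie and deposited FPKM per gene; strandedness of counting and the annotation release are not given in the sources used here. The table also holds the authors' edgeR comparison (fold, log2 fold, p and q), which was not used. FPKM of the 15150 genes at 0.5 or more in at least 4 libraries was compared on the log2(FPKM + 1) scale in limma 3.58.1 (R 4.3.3, trend in the prior variance, no covariates). edgeR needs counts and was not run. The threshold was an unadjusted p under 0.05 with a fold of at least 1.5 or at most 0.67, with Benjamini-Hochberg adjustment over all 15150 genes beside it. The procedure was tested on simulated data.

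The members and lists were chosen with earlier results of these data known. Named were members past the threshold, the 8 with the smallest p and the 8 with the highest mean, and from each other list the 2 with the smallest p and the 2 with the highest mean; genes outside this rule are described as such or serve as neighbours. Of the identifiers, 99.5% were in GENCODE M21 (GRCm38), including all 74 members; 61 members matched RefSeq promoters (GRCm38.p6). Stem-loop sites and windows of 50 bases were read from GENCODE transcripts. Alternatives were a pseudocount of 0.1, other filters, scaling to a common median ratio, a fold of 2, no trend, a mouse-number block and each mouse left out.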

Additional observations from a re-analysis of the deposited data

Results flagged for a closer look

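In each group of 4 mice, the highest and the lowest value were compared with the nearest other (the gap as a share of the range, given in brackets, against Dixon's limit). Each gene entered this comparison as log2(FPKM + 1) and each sum as plain FPKM, while all values are printed in FPKM. The comparison was made for 64 results in 128 groups, of which chance alone marks about 6, and 8 were marked. Of histone sums, the Hist2 cluster in rFGF4 mouse 3 was at 9.04 FPKM against 3.04 to 3.10 in the other rFGF4-treated mice (0.990), and 6.74 FPKM of it was H2ac18, which was at the floor in those 3 mice (1.0). The sum of the replacement genes in rFGF4 mouse 1 was 321 FPKM against 232 to 246 (0.839). The germ-cell genes summed to 0.401 FPKM in rFGF4 mouse 2 against 0.0555 to 0.101 (0.869). Of the other genes, Ncbp2 (cap-binding complex) was at 19.4 FPKM in rFGF4 mouse 1 against 12.8 to 13.6 (0.868), and Rpph1 at 0.475 FPKM in that mouse against 2.64 to 3.33 (0.841). Cd79b, a B cell gene, was at 2.04 FPKM there against 0.472 to 0.514 (0.961). Ighm, an immunoglobulin heavy chain gene, was at 964 FPKM in vehicle mouse 5 against 2.78 to 6.76 (0.870). No other single histone gene examined in this way was marked.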

How the results depend on the processing

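The table gives no counts, so low members cannot be judged by depth. H1f2 was past the threshold under every alternative except a fold of 2, at which 0 members and 54 genes passed, and a pseudocount of 0.1 FPKM gave 2 members, with H2bu2 at -1.34, and 348 genes. Its log2 difference was -0.73 to -1.01 with each mouse left out. With each mouse left out, 1 member passed in every fit, and 188 to 580 genes, the most without rFGF4 mouse 5 (580) and without vehicle mouse 5 (434). Without rFGF4 mouse 1 and vehicle mouse 5, an alternative added after seeing the data, 273 genes and 1 member passed. Scaling to a common median ratio gave a member median of -0.16 and 176 genes (93 higher, 83 lower, against 165 and 67 as deposited). The members' median was -0.15 to -0.0087 with each mouse left out.

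Directions changed for small differences: under scaling H2az2 (-0.024), H3f3b (-0.044) and H3f3a (-0.068), and, with each mouse left out, H2bc4 (-0.28 to 0.074), H3f3b (-0.14 to 0.23), H3f3a (-0.054 to 0.16) and H2ax (-0.011 to 0.30). Without both mice named above, H2bc4 was at 0.0045 and H3f3b at -0.020. The cause was not tested. The deviations of same-numbered mice from their group means correlated at r of -0.23, -0.16 and -0.39. These values cannot decide whether the numbers mark a pairing, because a few libraries that stand apart can set them. With the mouse number as a replicate block, the difference rests only on mice 2, 3 and 5, whose numbers occur in both groups. rFGF4 mouse 1 and vehicle mouse 4 do not inform it. In that fit 1 member (H1f2, -0.68) and 263 genes passed, and the members' median was -0.041. H2bc4 (0.089), H3f3b (-0.26), H3f3a (-0.14) and H2ax (-0.079) changed sign.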
